A study of Mus musculus with 18 samples.

Results

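The aminoacyl-tRNA synthetases were examined in RNA-seq libraries of mouse lenses that carry a cataract mutation of αA- or αB-crystallin. A list of 36 genes was taken by symbol from the gene count table: 20 cytosolic enzymes and 16 mitochondrial enzymes, the latter with symbols that end in 2. All 36 were found among the 40800 genes of the table, and all 36 were among the 13938 genes that held enough counts to be tested. The rule used no measured value, but the list was chosen with earlier results of these data known. The 18 libraries made up 6 groups of 3, and each library was made from the RNA of several whole lenses pooled. In the *Cryaa* line, lenses were 2 days old and were wild type (*Cryaa*-WT), heterozygous (*Cryaa*-R49C-het) or homozygous (*Cryaa*-R49C-homo) for a knock-in allele that replaces arginine by cysteine in αA-crystallin. In the *Cryab* line, lenses were 14 days old and were wild type (*Cryab*-WT), heterozygous (*Cryab*-R120G-het) or homozygous (*Cryab*-R120G-homo) for a knock-in allele that replaces arginine by glycine in αB-crystallin. All mice were on the C57BL/6J background, and each mutation sits in the gene's own locus, so that it is carried by every cell of the mouse. Line and age change together, so that they cannot be told apart.

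Each synthetase joins an amino acid to its tRNA, which the ribosome then uses. Cytosolic translation and mitochondrial translation use separate sets of enzymes, apart from *Gars* and *Kars*, whose genes also supply the mitochondrial enzyme. Several cytosolic enzymes sit together with scaffold proteins in a multisynthetase complex. Genes of cytosolic synthetases are known targets of ATF4, the transcription factor of the amino acid response, which binds sites called C/EBP-ATF response elements. The lens makes crystallin protein at a very high rate in its fiber cells, which later lose their nuclei and mitochondria.

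Across the libraries, 14272174 to 29639719 reads were counted in genes. Crystallin transcripts took 47.6% ± 1.36 of the counts in *Cryaa*-WT (SD, n = 3), and 61.2%, 37.7% and 23.8% in *Cryaa*-R49C-homo replicates 1, 2 and 3. The libraries of *Cryaa*-R49C-homo therefore differed among themselves: replicate 3 had the lowest crystallin share of all 18 libraries and the highest share of *Gm42418*, a noncoding locus (42.6%), and replicate 1 had the lowest *Gm42418* share (2.53%). Lens fiber and epithelial markers were present as the label says, except *Lim2* and *Pdpn*, which had 0 counts in all 18 libraries. The knock-in alleles are point mutations, so that gene counts do not check the genotype: the *Cryaa* transcript had a log2 fold change of -0.76 (SE 0.33, adjusted p = 0.150) in *Cryaa*-R49C-homo. For 6 mutant libraries of the *Cryab* line the genotype field names the other line's mutation, and the titles were followed. Levels are given as CPM, the count rate of a gene in its library, with library sizes scaled by the trimmed mean of M values (TMM), and differences as log2 fold changes with the standard error (SE) of an edgeR fit over all 18 libraries. A gene was called at an adjusted p of at most 0.05 over all 13938 genes. The p-values measure the spread between these pooled libraries alone.

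The sequences just around the transcription start are shown for the members whose transcript rose in *Cryaa*-R49C-homo lenses and whose RefSeq promoter window (GRCm38.p6, 250 bases before the start and 50 after it) held the letters TGATGNAA, the core of a C/EBP-ATF response element. Both strands were searched, and capitals mark the match, printed as it reads on the gene's strand. The first is from *Yars* at chr4:129189846-129189932 on the plus strand, *Gars* follows at chr6:55037911-55038008 on the plus strand, *Aars* at chr8:111033670-111033871 on the plus strand, *Iars* at chr13:49682077-49682159 on the plus strand and *Tars* at chr15:11399636-11399733 on the minus strand.
Yars: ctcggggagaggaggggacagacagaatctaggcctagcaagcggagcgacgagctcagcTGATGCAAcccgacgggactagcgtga
Gars: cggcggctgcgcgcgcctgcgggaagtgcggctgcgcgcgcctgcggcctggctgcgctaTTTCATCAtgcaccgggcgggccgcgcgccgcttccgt
Aars: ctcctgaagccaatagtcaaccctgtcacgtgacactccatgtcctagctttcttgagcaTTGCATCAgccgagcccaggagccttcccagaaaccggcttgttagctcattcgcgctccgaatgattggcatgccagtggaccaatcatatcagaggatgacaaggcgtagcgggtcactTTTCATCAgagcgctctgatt
Iars: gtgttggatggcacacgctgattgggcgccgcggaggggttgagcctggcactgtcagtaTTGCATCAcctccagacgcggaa
Tars: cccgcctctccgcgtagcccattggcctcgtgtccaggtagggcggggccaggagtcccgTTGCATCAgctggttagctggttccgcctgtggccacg

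A window was given for 26 of the 36 members. The called members *Cars*, *Mars*, *Nars* and *Rars* had no window and were not searched. The motif was found in 5 of the 7 members with a window that were called in *Cryaa*-R49C-homo (71.4%), the exceptions being *Eprs* and *Sars*. It was found in 0 of the 19 windows of members that were not called, of which 5 were cytosolic and 14 mitochondrial. Of all 32851 promoter windows of the same length, 3.97% held it. The matches began at position 4 from the start in *Yars*, at -30 in *Gars*, at -112 and 10 in *Aars*, at 8 in *Iars* and at -15 in *Tars*. A match of these letters is a description of the sequence, and binding was not measured.

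In *Cryaa*-R49C-homo lenses 11 of the 20 cytosolic synthetase transcripts rose and the other 9 were not called, in the comparison that asks what 2 mutant copies do at day 2. These 11 were called higher than in *Cryaa*-WT and 0 lower, while 9.79% of all genes tested were called, 4.87% higher and 4.91% lower. The called members rose 1.76-fold to 3.42-fold. Of the 16 mitochondrial members, 0 were called in either direction by edgeR's quasi-likelihood test, and 2 had an unadjusted p under 0.05, against 24.3% of all genes. The median log2 fold change was 0.85 over the cytosolic members, 0.31 over the mitochondrial members and 0.00 over all genes.

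**Figure D1:**
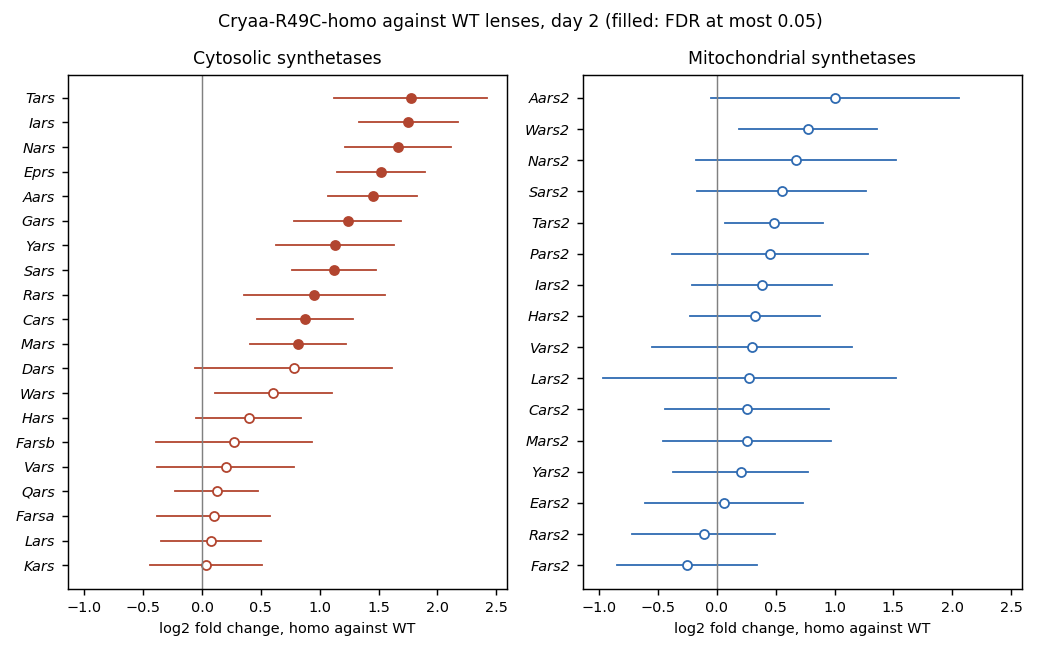
Log2 fold change (x axis) of each cytosolic (left, red) and mitochondrial (right, blue) synthetase in 3 *Cryaa*-R49C-homo against 3 *Cryaa*-WT libraries at day 2, with 95% intervals from the edgeR fit as bars and filled points for an adjusted p of at most 0.05. The 11 filled points are all cytosolic and lie between 0.82 and 1.77, and the 16 mitochondrial points are open.

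*Iars*, which charges tRNA with isoleucine, had the smallest adjusted p. The gene lies at chr13:49682100-49734267 on the plus strand of GRCm38. Its level was 10.9, 12.5 and 9.18 CPM in *Cryaa*-WT, 9.97, 13.2 and 9.85 CPM in *Cryaa*-R49C-het and 28.6, 47.3 and 34.1 CPM in *Cryaa*-R49C-homo. All 3 homozygous libraries were above every wild-type and heterozygous library, and the latter groups overlapped. The log2 fold change against WT was 1.75 (SE 0.21, adjusted p = 7.68e-06).

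*Eprs* (chr1:185363044-185428360, plus strand) encodes the enzyme that charges both glutamate and proline tRNAs. It was measured at 40.1, 44.6 and 38.3 CPM in *Cryaa*-WT, at 44.1, 47.9 and 43.6 CPM in *Cryaa*-R49C-het and at 127, 130.5 and 95.2 CPM in *Cryaa*-R49C-homo. The homozygous libraries stood well above the rest, and WT and het overlapped. The change against WT was 1.52 on the log2 scale (SE 0.19, adjusted p = 1.07e-05).

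*Aars*, the alanine enzyme (chr8:111033144-111057664, plus strand), was at 9.80, 10.2 and 8.65 CPM in *Cryaa*-WT, at 9.37, 9.80 and 8.38 CPM in *Cryaa*-R49C-het and at 22.3, 29.3 and 26.8 CPM in *Cryaa*-R49C-homo. Again the homozygous group did not overlap with the other groups, which did overlap with each other. The log2 fold change was 1.45 (SE 0.19, adjusted p = 2.42e-05). Of its exonic bases, 15.1% are shared with other annotated genes.

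*Nars*, the asparagine enzyme, was at 20.3, 22.8 and 19.4 CPM in *Cryaa*-WT, at 23.3, 23.1 and 22.5 CPM in *Cryaa*-R49C-het and at 62.5, 89.0 and 46.9 CPM in *Cryaa*-R49C-homo. The lowest homozygous library was above the highest of the other groups, and the homozygous libraries were widely spread. Its log2 fold change was 1.67 (SE 0.23, adjusted p = 3.89e-05).

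*Sars*, the serine enzyme (chr3:108424865-108445209, minus strand), is among the most abundant synthetase transcripts of the lens. It had 53.8, 51.1 and 43.5 CPM in *Cryaa*-WT, 54.7, 58.3 and 46.9 CPM in *Cryaa*-R49C-het and 107, 119 and 96.4 CPM in *Cryaa*-R49C-homo. The homozygous libraries were close together and all higher than the other 6 of the line. The log2 fold change was 1.12 (SE 0.18, adjusted p = 0.00028).

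*Gars*, the glycine enzyme of both compartments (chr6:55038007-55079500, plus strand), was at 34.6, 39.8 and 30.6 CPM in *Cryaa*-WT, at 38.7, 40.9 and 33.2 CPM in *Cryaa*-R49C-het and at 109.9, 81.9 and 55.7 CPM in *Cryaa*-R49C-homo. Replicate 1 was the highest of the homozygous libraries and replicate 3 the lowest, and none of them overlapped with the other groups. The log2 fold change was 1.24 (SE 0.23, adjusted p = 0.00105).

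**Figure D2:**
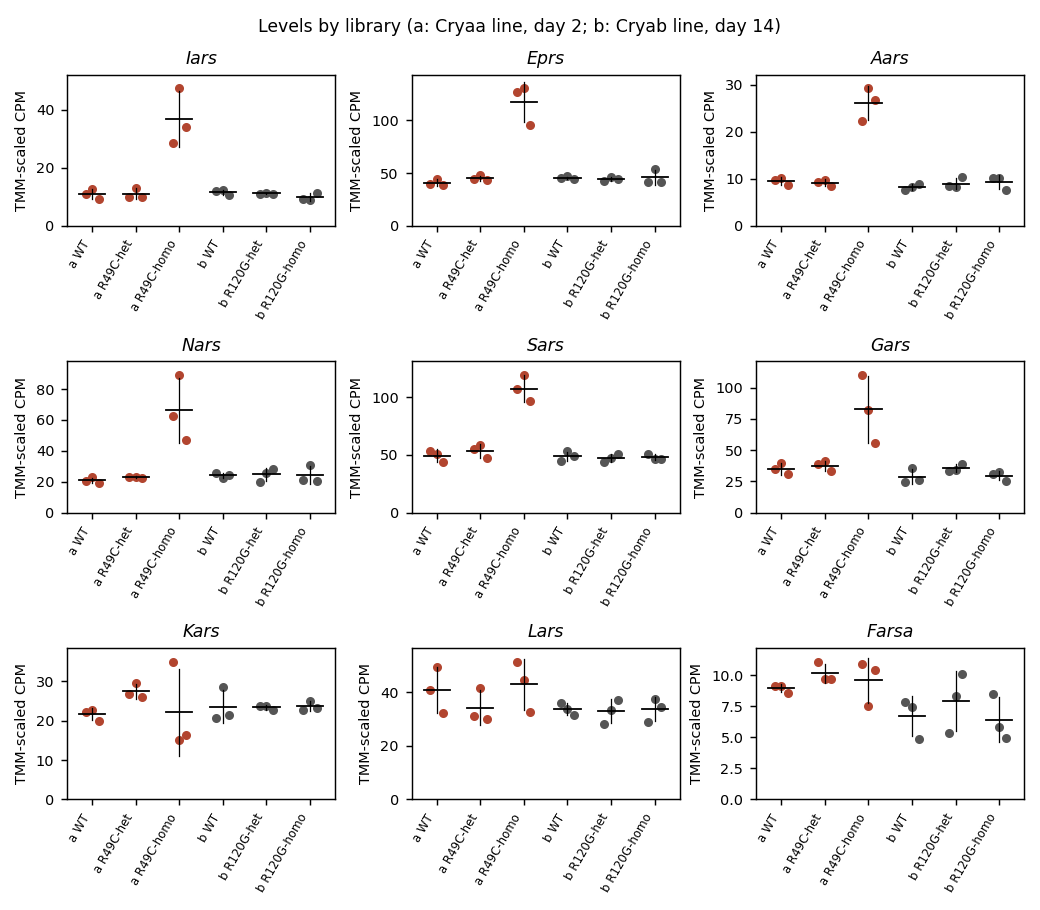
TMM-scaled CPM (y axes, from 0) in each library of the 6 groups (x axes) for the 6 members with the smallest adjusted p in *Cryaa*-R49C-homo and the 3 cytosolic members with the smallest change there; points are libraries, red for the *Cryaa* line and gray for the *Cryab* line, and bars give the mean and SD (n = 3). For *Iars*, *Eprs*, *Aars*, *Nars*, *Sars* and *Gars* the *Cryaa*-R49C-homo points lie above the points of all other groups, and for *Kars*, *Lars* and *Farsa* they overlap with those of WT.

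The other 5 called members charge threonine, tyrosine, cysteine, methionine and arginine tRNAs. *Tars* (chr15:11382301-11399665, minus strand) had a log2 fold change of 1.77 (SE 0.33, adjusted p = 0.00113), and without homozygous replicate 1 it was 1.23. Its 3 homozygous libraries were far apart, at 44.2, 20.9 and 16.8 CPM, against 7.67, 6.75 and 9.56 CPM in *Cryaa*-WT. *Yars* (chr4:129189760-129219607, plus strand) changed by 1.13 (SE 0.26, adjusted p = 0.00611), and *Cars* by 0.88 (SE 0.21, adjusted p = 0.00894). Both groups of libraries were separate for each of these genes. *Mars* (chr10:127296221-127311786, minus strand) rose by 0.82 (SE 0.21, adjusted p = 0.0143). Of its exonic bases 1.99% lie opposite *Ddit3*, a gene that rose by 5.17 on the log2 scale, and whether reads were counted by strand is not given in the sources used here. *Rars* rose by 0.95 (SE 0.30), with an adjusted p of 0.0495 that lay just under the threshold.

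The adjusted p of *Rars* was 0.105 to 0.152 without any of 5 of the 6 libraries compared, WT replicates 1, 2 and 3 and homo replicates 1 and 2. Without WT replicate 1 *Mars* was also lost (adjusted p = 0.0605), and without WT replicate 3 both *Mars* (0.0703) and *Cars* (0.054) were lost. A fit on these 6 libraries alone called 5 members, *Aars*, *Eprs*, *Iars*, *Nars* and *Tars*.

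The 9 cytosolic members that were not called had positive log2 fold changes between 0.03 and 0.78. *Dars*, the aspartate enzyme, had 0.78 with a wide error (SE 0.43, adjusted p = 0.284). *Wars*, the tryptophan enzyme, had 0.61 (SE 0.25, adjusted p = 0.137), although its homozygous libraries were all above those of WT. The values of *Hars*, *Farsb*, *Vars* and *Qars* were 0.40, 0.27, 0.20 and 0.12.

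*Kars*, the lysine enzyme of both compartments (chr8:111993443-112011323, minus strand), had the smallest change. It was at 22.2, 22.8 and 20.01 CPM in *Cryaa*-WT, at 26.8, 29.6 and 26.1 CPM in *Cryaa*-R49C-het and at 34.9, 15.1 and 16.4 CPM in *Cryaa*-R49C-homo. Homozygous replicate 1 was above every WT library and replicates 2 and 3 were below every WT library, so the log2 fold change of 0.03 (SE 0.24, 95% interval -0.45 to 0.52) stands between libraries that went apart.

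*Lars*, the leucine enzyme, was at 40.9, 49.4 and 32.2 CPM in *Cryaa*-WT, at 31.1, 41.7 and 30.1 CPM in *Cryaa*-R49C-het and at 51.3, 44.7 and 32.8 CPM in *Cryaa*-R49C-homo, with overlap of all 3 groups. Its log2 fold change was 0.07 (SE 0.22, adjusted p = 0.882). *Farsa*, the α subunit of the phenylalanine enzyme (chr8:84856989-84869257, plus strand), was at 9.12, 9.15 and 8.58 CPM in *Cryaa*-WT, at 11.1, 9.71 and 9.70 CPM in *Cryaa*-R49C-het and at 10.9, 7.51 and 10.4 CPM in *Cryaa*-R49C-homo. Its homozygous libraries overlapped with both other groups, while all heterozygous libraries were above those of WT, and the log2 fold change of homozygous against WT was 0.10 (SE 0.24, adjusted p = 0.852).

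Members also split in the multisynthetase complex. Of its 8 enzymes 4 were called higher (*Eprs*, *Iars*, *Mars* and *Rars*) and 4 were not called (*Dars*, *Kars*, *Lars* and *Qars*), with a median log2 fold change of 0.80. Of all genes, 4.87% were called higher. The calls of *Mars* and *Rars* were each lost in some fits that left out a library. Of the 12 cytosolic members outside the complex 7 were called, with a median of 0.998. Of the 3 scaffold proteins of the complex, *Aimp1* rose by 0.76 (SE 0.24, adjusted p = 0.0468), and *Eef1e1* had -0.09 (SE 0.23, adjusted p = 0.854). *Aimp2* had -0.27 with an SE of 0.67. *Xpot*, which exports tRNA from the nucleus, rose by 1.50 (SE 0.29, adjusted p = 0.00161), from 3.45 ± 0.916 CPM in *Cryaa*-WT to 9.79 ± 3.33 CPM in *Cryaa*-R49C-homo (SD, n = 3).

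The median SE was 0.35 over mitochondrial and 0.23 over cytosolic members, with overlap between the classes. The largest change was that of *Aars2*, the mitochondrial alanine enzyme, at 1.01 (SE 0.54, adjusted p = 0.261). *Wars2*, the tryptophan enzyme, had the smallest adjusted p at 0.110 (log2 fold change 0.77, SE 0.30). The libraries of *Aars2*, *Hars2*, *Nars2*, *Tars2* and *Wars2* were all above WT, that is 5 of 16 members, against 12 of 20 cytosolic members and 11.9% of all genes. The upper 95% limit of the log2 fold change was under 1 for 9 of the 16 mitochondrial members, and for the others a rise of that size was within the interval.

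The 2 sets of enzymes could be compared for the same amino acid in 17 pairs of genes, which are not independent: *Eprs* and *Fars2* each stand in 2 pairs, and the pair of *Lars* and *Lars2* is included. The log2 fold change of the cytosolic gene was larger than that of the mitochondrial gene in 14 pairs, with a median difference of 0.57. Summed over members, the cytosolic level was 381 to 442 CPM in *Cryaa*-WT, 441 to 521 CPM in *Cryaa*-R49C-het and 949, 823 and 651 CPM in *Cryaa*-R49C-homo replicates 1 to 3. The mitochondrial sum without *Lars2* was 41.9 to 48.0 CPM in *Cryaa*-WT, 45.3 to 48.9 CPM in *Cryaa*-R49C-het and 43.2 to 63.9 CPM in *Cryaa*-R49C-homo. The ratio of both sums within a library, which needs no scaling between libraries, was 8.55 to 10.5 in *Cryaa*-WT and 14.4 to 19.0 in *Cryaa*-R49C-homo, and the groups did not overlap. In a bulk sample, fewer cells of a type and less RNA per cell cannot be told apart.

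Homozygous replicate 1 set several uncalled values. Some members, chosen after their values were seen, were high in that library and low in replicates 2 and 3. *Rars2*, the mitochondrial arginine enzyme, was at 19.6, 6.19 and 6.62 CPM against 10.9 to 13.1 CPM in *Cryaa*-WT. *Fars2*, the mitochondrial phenylalanine enzyme, was at 9.71, 3.30 and 3.54 CPM against 5.75 to 7.58 CPM in WT, and *Farsb*, the β subunit of the cytosolic phenylalanine enzyme, was at 47.7, 16.2 and 11.2 CPM against 19.4 to 22.0 CPM. Without replicate 1 these members were called lower, *Rars2* by -0.88 (adjusted p = 0.00323), *Fars2* by -0.96 (adjusted p = 0.00372) and *Farsb* by -0.60 (adjusted p = 0.0381), and 10 of the 11 called members were still called higher, all but *Rars*. That fit called 21.5% of all genes, 9.19% higher and 12.3% lower.

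Values of other genes in the same comparison are given here, and their part in the result was not tested. Of all genes tested, 4.87% were called higher and 4.91% lower, and 11.9% had all homozygous libraries above WT. Of 14 lens fiber markers tested 6 were called lower, with a median log2 fold change of -0.83 and a summed level of 92393 to 230145 CPM against 184506 to 279499 CPM in *Cryaa*-WT. Of 10 macrophage and microglia markers 2 were called higher, all 10 had positive log2 fold changes with a median of 1.38, and 7 had all homozygous libraries above WT, with a summed level of 19.0 to 38.0 CPM against 7.60 to 18.3 CPM. Of 10 vessel and mesenchyme markers tested 2 were called higher and 1 lower, with a median of 0.86, and the list summed to 43.6 to 170.4 CPM against 44.0 to 74.2 CPM, and of 8 epithelial markers tested 1 was called lower, with a median of -0.53 and a sum of 505 to 635 CPM against 629 to 810.2 CPM. Photoreceptor markers summed to 13.5 to 24.8 CPM in *Cryaa*-R49C-homo and to 9.49 to 39.7 CPM in *Cryaa*-WT. Of 9 pigment epithelium and melanocyte markers 2 were called lower, with a median of -0.97. Of 10 inner retina and glia markers 0 were called by edgeR, but all 10 were negative, with a median of -0.63. Of 10 photoreceptor and 5 erythrocyte markers tested 0 were called by edgeR, with medians of -0.44 and 1.03. None of the macrophage, vessel or photoreceptor markers in the table was at 0 in all libraries.

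The amino acid response list holds regulators such as *Atf4* and genes of amino acid and folate metabolism and transport. Of 16 tested 10 were called higher and 0 lower, against 4.87% and 4.91% of all genes. The median log2 fold change was 2.89. The list was chosen with earlier results of these data known. *Ddit3*, which encodes the transcription factor CHOP, rose by 5.17 (SE 0.31, adjusted p = 1.99e-10), from 3.57 ± 0.310 to 128 ± 32.9 CPM (SD, n = 3). *Mthfd2*, a mitochondrial folate enzyme, rose by 2.93 (SE 0.26, adjusted p = 7.29e-08). *Trib3*, a pseudokinase, had 0 to 4 counts in *Cryaa*-WT and 851 to 3904 counts in *Cryaa*-R49C-homo (adjusted p = 3.17e-08).

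Factors of translation itself were listed as well. Of 37 cytosolic translation factors 3 were called higher and 1 lower, a share near the 9.79% of all genes called, with a median log2 fold change of 0.24. *Eif2s2*, a subunit of the factor that brings initiator tRNA to the ribosome, rose by 1.59 (SE 0.28, adjusted p = 0.000494), and *Eif4a1*, an RNA helicase of initiation, rose by 0.85 (SE 0.20, adjusted p = 0.00791). *Eif5b*, which joins the ribosomal subunits, fell by 1.98 on the log2 scale (SE 0.31, adjusted p = 0.000173). *Eif3c*, named after its value was seen, rose by 0.66 (SE 0.21, adjusted p = 0.0454). Of 13 mitochondrial translation factors 0 were called by edgeR and 0 had an unadjusted p under 0.05, with a median of -0.07.

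A single mutant copy of *Cryaa*-R49C gave no called synthetase. In *Cryaa*-R49C-het against *Cryaa*-WT 0 of 36 members were called by edgeR and 0 had an unadjusted p under 0.05, while 0.00717% of all genes were called and 5.09% had an unadjusted p under 0.05. The median log2 fold change was 0.22 over cytosolic members, 0.07 over mitochondrial members and -0.01 over all genes. The largest were *Dars* at 0.81 (SE 0.43, adjusted p = 0.836) and *Lars2* at -1.02. Yet 9 cytosolic members and 0 mitochondrial members had all heterozygous libraries above all WT libraries, against 9.57% of all genes. They were *Dars*, *Farsa*, *Farsb*, *Hars*, *Kars*, *Qars*, *Rars*, *Tars* and *Yars*, with log2 fold changes of 0.18 to 0.81. *Tars*, for example, was at 11.6, 13.0 and 12.6 CPM in the heterozygous libraries, against 6.75 to 9.56 CPM in WT.

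Between homozygous and heterozygous lenses 7 cytosolic members were called higher, 0 were called lower and 0 mitochondrial members were called, against 8.32% of all genes called, 4.69% higher and 3.63% lower. They were *Iars* at 1.74 (adjusted p = 1.33e-05), *Aars* at 1.51 (2.28e-05), *Eprs* at 1.38 (5.05e-05), *Nars* at 1.53 (0.000143), *Sars* at 1.01 (0.00111), *Gars* at 1.13 (0.00331) and *Tars* at 1.14 (0.0314). This comparison shares the homozygous libraries with that against WT. The median log2 fold change was 0.50 for cytosolic and 0.39 for mitochondrial members. *Lars2* had the largest mitochondrial value at 1.29 (SE 0.65, adjusted p = 0.243). Without homozygous replicate 1 the fit called 13 members, 9 higher and 4 lower, and 28.7% of all 14398 genes it tested, 13.4% higher and 15.3% lower. Of these members 4 were mitochondrial, *Iars2* at 0.87 (adjusted p = 0.0406) and *Lars2* at 1.79 (0.0141), both higher, and *Fars2* at -1.18 (0.000491) and *Rars2* at -1.14 (0.000246), both lower. The cytosolic *Farsb* at -1.03 and *Kars* at -0.81 were also called lower in that fit. *Tars* was lost in 4 of the 6 fits that each left out a library.

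In the *Cryab* line at day 14, 0 synthetases were called in any comparison by edgeR. For *Cryab*-R120G-homo against *Cryab*-WT the background was 0.0502% of genes called, and 0 of 36 members had an unadjusted p under 0.05, against 6.1% of all genes. The median log2 fold change was 0.01 over cytosolic and 0.19 over mitochondrial members. *Dars* had the largest cytosolic value at 0.57 (SE 0.43, adjusted p = 0.943), and *Lars2* the largest mitochondrial value at -0.80 (SE 0.64, adjusted p = 0.943). For *Cryab*-R120G-het against WT, with 0.00717% of genes called, 3 members had an unadjusted p under 0.05: *Tars* at 0.82, *Wars2* at 0.81 and *Ears2*, the mitochondrial glutamate enzyme, at -0.84. This compares with 3.82% of all genes. For homozygous against heterozygous lenses, with 0% of genes called and 1.97% at an unadjusted p under 0.05, the largest values were -0.31 for *Farsa* and -0.48 for *Vars2*.

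The 6 members with the smallest adjusted p in *Cryaa*-R49C-homo are given here for the *Cryab* line. *Iars* was at 11.9, 12.2 and 10.6 CPM in *Cryab*-WT, at 11.1, 11.4 and 10.9 CPM in *Cryab*-R120G-het and at 9.11, 9.02 and 11.4 CPM in *Cryab*-R120G-homo. *Eprs* was at 44.9, 46.8 and 44.2 CPM, at 42.1, 46.3 and 44.6 CPM and at 42.0, 54.3 and 41.4 CPM in the same order of groups. All groups overlapped for both genes. *Sars* was at 45.2, 53.0 and 48.8 CPM in *Cryab*-WT and at 51.2, 46.8 and 46.4 CPM in *Cryab*-R120G-homo, and *Aars* at 7.60, 8.34 and 8.83 CPM and at 10.2, 10.2 and 7.65 CPM, also with overlap. *Nars* was at 25.3, 22.7 and 24.1 CPM in *Cryab*-WT and at 21.3, 30.7 and 20.4 CPM in *Cryab*-R120G-homo, and *Gars* at 24.6, 35.8 and 26.2 CPM and at 30.8, 32.6 and 25.5 CPM. The groups of both overlapped. The summed cytosolic level was 381 to 514 CPM over the 9 libraries of the line.

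The effect of 2 mutant copies was compared between the lines directly, with a term for its difference. In 7 cytosolic members it was larger in the *Cryaa* line, against 2.91% of all genes called and 1.16% in that direction. The difference on the log2 scale was 1.99 for *Iars* (SE 0.30, adjusted p = 0.000359), 1.50 for *Eprs* (SE 0.27, adjusted p = 0.0021) and 1.66 for *Nars* (SE 0.32, adjusted p = 0.00441). These 3 genes were called under every setting tried for that comparison. *Aars* followed with 1.27 (adjusted p = 0.0104), *Sars* with 1.15 (0.0149), *Yars* with 1.37 (0.041) and *Gars* with 1.20 (0.0462). The last pair was near the threshold, and each was lost in 9 of the 12 fits that left out a library. *Tars* had a difference of 1.25 with a larger error (SE 0.47, adjusted p = 0.183). Of the 16 mitochondrial members 0 were called by edgeR and 0 had an unadjusted p under 0.05, against 15.4% of all genes, and the largest difference was 1.08 for *Lars2* (SE 0.90, adjusted p = 0.633). Without *Cryaa*-R49C-homo replicate 1, 10 members were called, against 12.5% of all genes in that fit, 7.76% in the opposite direction. In that direction were 3 members, *Rars2* at -1.20 (adjusted p = 0.00538), *Fars2* at -0.93 (0.0466) and the cytosolic *Farsb* at -0.84 (0.0449).

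**Figure D3:**
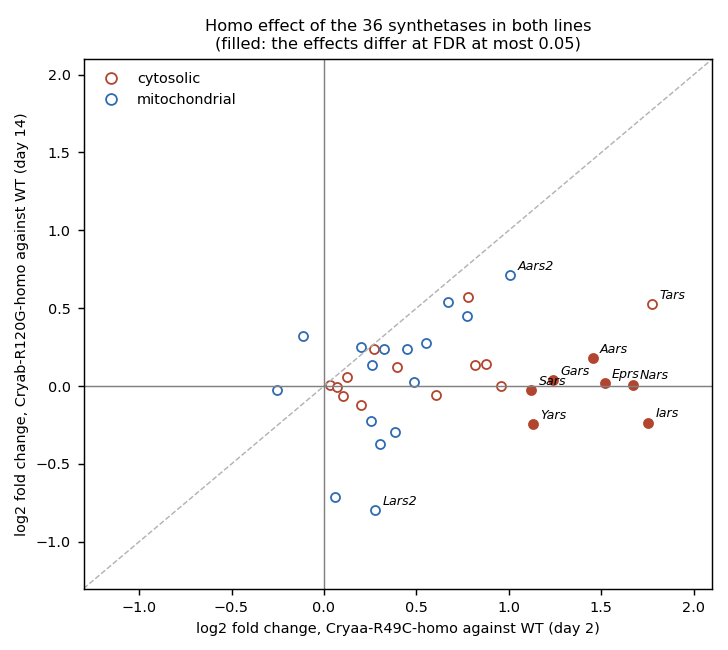
Log2 fold change of homozygous against WT lenses in the *Cryaa* line at day 2 (x axis) and in the *Cryab* line at day 14 (y axis) for 20 cytosolic (red) and 16 mitochondrial (blue) synthetases; the dashed line marks equal effects and filled points an adjusted p of at most 0.05 for their difference. The 7 filled points are cytosolic and lie at 1.12 to 1.75 on the x axis and at -0.25 to 0.18 on the y axis.

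The cytosolic members of wild-type lenses summed to 381 to 442 CPM at day 2 and to 387 to 479.6 CPM at day 14, and the groups overlapped. Per kilobase of the gene length implied by the deposited RPKM, *Gars* was highest in *Cryaa*-WT at 14.6 ± 1.95 CPM per kb (SD, n = 3), followed by *Sars* at 13.5 ± 1.46. Both groups of library values overlapped. The lowest were *Aars* at 1.03 ± 0.0849 and *Vars*, the valine enzyme, at 0.947 ± 0.116 CPM per kb, also with overlap. Among mitochondrial members other than *Lars2*, *Rars2* was highest at 4.24 ± 0.430 CPM per kb and *Fars2* next at 3.13 ± 0.432, and *Mars2*, the methionine enzyme, was lowest at 0.0812 ± 0.0153. The length is a limit of these values, since for 17 of the 36 members the exonic bases of the GENCODE vM21 annotation differed by more than 1% from it, up to 3.92 times. With those exonic bases, a choice added after the data were seen, *Gars* was at 11.2 ± 1.49, *Sars* at 9.62 ± 1.04 and *Fars2* at 1.16 ± 0.160 CPM per kb. The members named here kept their rank within the class, while *Kars* moved from rank 5 to 8 and *Farsb* from rank 8 to 3, so no order is read between the extremes.

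Between *Cryab*-WT at day 14 and *Cryaa*-WT at day 2, 23.2% of all genes were called but 0 of 36 synthetases by edgeR, of which 3 had an unadjusted p under 0.05, against 35.6% of all genes. *Vars* had a log2 difference, day 14 less day 2, of -0.86 (SE 0.32, adjusted p = 0.0552) and *Hars*, the histidine enzyme, of 0.62 (SE 0.23, adjusted p = 0.0555). *Hars* was at 21.7, 27.6 and 30.2 CPM at day 14, all above its 16.0 to 18.6 CPM at day 2, and *Vars* at 3.41, 1.67 and 3.78 CPM, all below its 4.63 to 5.92 CPM at day 2. The median was 0.05 over cytosolic members, -0.19 over mitochondrial members and -0.07 over all genes. *Hars*, *Vars*, *Lars2* and *Farsb* were called in some other fits, as were *Rars*, *Sars2* and *Hars2* with a *Cryab*-WT library left out, and library totals without a further factor put the median of all genes at -1.61 and called 35 members lower. Directions between ages are therefore relative to the scaling by trimmed mean.

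**Figure D4:**
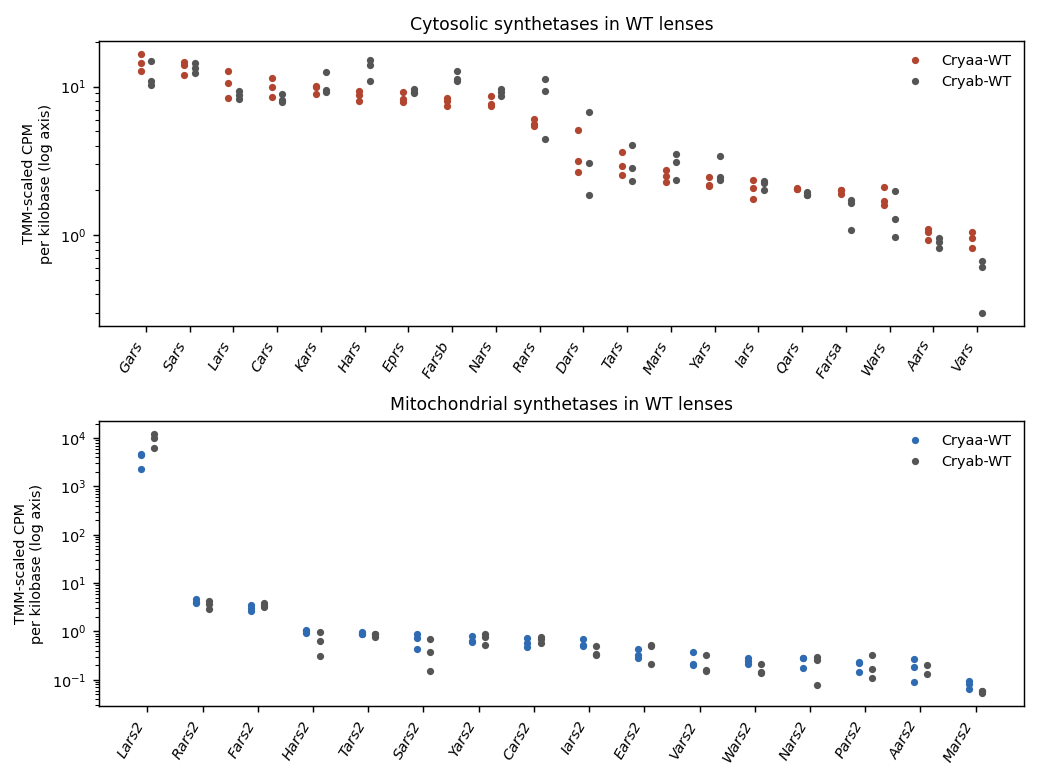
TMM-scaled CPM per kilobase of the length implied by the deposited RPKM (y axes, log scale) of the cytosolic (top) and mitochondrial (bottom) synthetases in the 3 *Cryaa*-WT libraries at day 2 (colored) and the 3 *Cryab*-WT libraries at day 14 (gray), in the order of the day 2 mean; each point is a library, and *Aars2* in *Cryab*-WT replicate 3 had 0 counts and is not drawn. Cytosolic members span about 0.947 to 14.6 in the day 2 mean, and *Lars2* stands far above the other mitochondrial members.

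*Lars2*, the mitochondrial leucine enzyme (chr9:123366927-123462666, plus strand), was an exception in level and was set apart. It took 75.0% to 99.1% of all counts of the 36 members. Its level was 17323, 18307 and 8955 CPM in *Cryaa*-WT, 8968, 7912 and 5138 CPM in *Cryaa*-R49C-het and 3039, 16243 and 34732 CPM in *Cryaa*-R49C-homo. The homozygous libraries held both the lowest and the highest value of the line, and the log2 fold change of 0.28 (SE 0.64, adjusted p = 0.844) had a wide error. In the *Cryab* line it was at 48168, 23984 and 38716 CPM in WT, at 26958, 25457 and 18856 CPM in het and at 13470.2, 11795 and 38484 CPM in homo, with overlap of all groups.

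The *Lars2* counts followed those of *Gm42418*, a locus at chr17:39846958-39848788 whose exonic bases are 99.5% covered by annotated ribosomal RNA and another noncoding gene on the opposite strand. *Gm42418* took 2.53% to 42.6% of all counts. Over the 9 libraries of the *Cryaa* line, *Lars2* as a rate among counts other than *Gm42418* correlated with the *Gm42418* share with Pearson's r = 0.88 (exact permutation p = 0.000182, two-sided, adjusted over both lines 0.000182) and Spearman's rho = 0.93 (exact p = 0.00075). When the 2 libraries with the most extreme *Gm42418* share were dropped, r was 0.84. Over the 9 libraries of the *Cryab* line r was 0.97 (exact permutation p = 4.41e-05, adjusted 8.82e-05), rho was 0.98 (exact p = 4.96e-05) and r after dropping the 2 most extreme was 0.94. *Lars2* counts came to 7.31% to 11.2% of *Gm42418* counts in all groups but *Cryaa*-R49C-homo, where they came to 27.2%, 13.3% and 14.0%. With the group means removed r was 0.97 in each line. How many of the *Lars2* reads are ribosomal RNA was not tested, and no level of the enzyme's transcript is read from them.

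**Figure D5:**
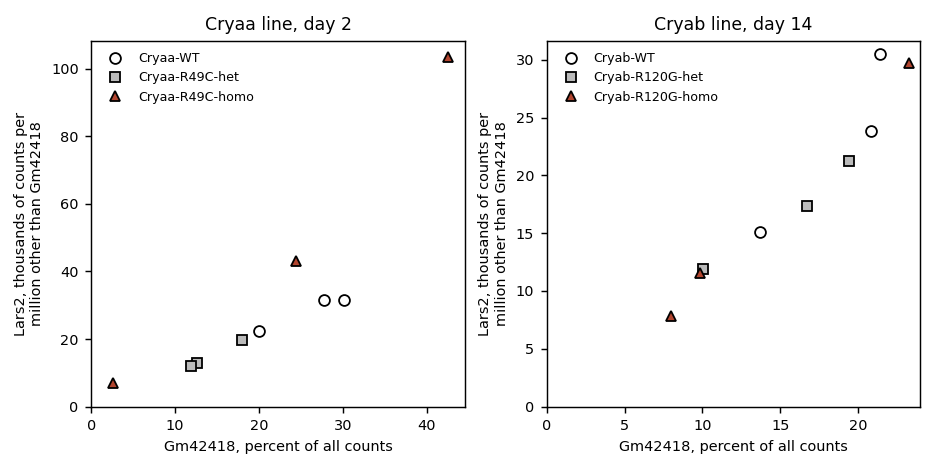
*Lars2* as a rate among counts other than *Gm42418* (y axis, unit as labeled) against the *Gm42418* share of all counts in percent (x axis), for the 9 libraries of the *Cryaa* line (left) and the 9 of the *Cryab* line (right); symbols give the genotype and each is a library. Both plots rise from lower left to upper right, with r = 0.88 and r = 0.97.

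By position, all 36 members are annotated as protein-coding genes and lie on 15 chromosomes. Exonic bases are shared with another gene in 13 of them and not in 23, with the highest share, 24.2%, in *Iars2*. *Vars*, *Aars2* and *Vars2* lie on the chromosome of *Cryaa*, the nearest of them 3.32 Mb away, and none of the 3 was called in *Cryaa*-R49C-homo. *Qars* and *Lars2* lie on the chromosome of *Cryab*, 57.8 and 72.6 Mb away, and neither was called within the *Cryab* line.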

How the data were processed

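RNA of pooled lenses was made into libraries with a Clontech poly-A kit and sequenced as single reads of 50 bases. Per the submitters' processing notes, the authors used CASAVA 1.8, STAR 2.0.4b and featureCounts 1.4.5 (Subread) with GRCm38, and deposited gene counts of uniquely aligned, unambiguous reads. The authors' deposited RPKM served only to derive each gene's length, and their CPM and log2 tables were not used. Counts of 18 libraries were fitted with edgeR 4.0.16 (R 4.3.3; filterByExpr, TMM factors, a mean per group, quasi-likelihood F test) over 13938 genes, with Benjamini-Hochberg adjusted p-values and a threshold of 0.05. Simulated data with known changes were used to test the fit.

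The members and gene lists were chosen with earlier results of these data known. Named are the members past the threshold (at most 20), the largest change of each class in each comparison, and other genes from fixed lists by smallest adjusted p. Values per library are given for the 6 smallest adjusted p-values in *Cryaa*-R49C-homo, for called mitochondrial members, for *Lars2* and for the 3 smallest cytosolic changes. Beyond this rule, other members were given library values as examples after their values were seen. Same-numbered libraries correlated best for every replicate in *Cryaa*-R49C-homo against WT (r = 0.04, 0.16 and 0.15). The same held in *Cryab*-R120G-homo against WT (r = 0.28, 0.18 and 0.16). In *Cryaa*-R49C-het against WT same-numbered libraries had r = -0.05, 0.33 and 0.48. Same-numbered het and homo libraries of the *Cryab* line carry adjacent numbers in their titles. No label ties same-numbered libraries to a shared litter or day. With a replicate block, 0 members were called in *Cryab*-R120G-homo against WT. Alternatives were RLE factors, library size, all genes, leaving out *Gm42418*, mitochondrial rRNA and crystallin genes, DESeq2 1.42.0, a likelihood-ratio test, only the groups compared, the block, and leaving out each library. Promoter windows are from RefSeq. For *Lars2* all 362880 pairings were enumerated. Protein sequences were not analysed here.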

Additional observations from a re-analysis of the deposited data

Results flagged for a closer look

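In 7 members the effect of homozygosity for the mutation differed between the lines by a test of the difference itself (edgeR quasi-likelihood, adjusted over all genes). The difference, *Cryaa* line less *Cryab* line on the log2 scale, was 1.27 for *Aars*, 1.50 for *Eprs*, 1.20 for *Gars*, 1.99 for *Iars*, 1.66 for *Nars*, 1.15 for *Sars* and 1.37 for *Yars*. The allele, the gene and the age all change between the lines and cannot be told apart.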

How the results depend on the processing

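Of 392 values of single called members under the alternatives, 344 kept their direction and side of the threshold, 48 kept the direction and missed the threshold, and 0 reversed. In *Cryaa*-R49C-homo against WT 11 members were called; only the groups compared gave 5, and leaving out a library gave 8 to 13. Homozygous against heterozygous gave 7, with 14 by the likelihood-ratio test, 4 from only the groups compared and 6 to 13 with a library left out (13 without homo replicate 1). The difference between lines gave 7, with 4 under library size alone, 3 from only the groups compared and 5 to 10 with a library left out. *Cryab*-WT against *Cryaa*-WT gave 0, with 2 for all genes with a count, 1 under RLE factors, 35 under library size, 2 by DESeq2, 3 by the likelihood-ratio test, 4 from only the groups compared and 0 to 3 with a library left out. The cause was not tested, although the fits on fewer groups hold fewer libraries. The heterozygous comparisons with WT and all comparisons within the *Cryab* line gave 0 under every alternative. Over all genes, *Cryaa*-R49C-homo against WT called 1364, with 478 from only the groups compared, 2138 under library size (1884 higher, 254 lower, against 679 and 685), 2887 by the likelihood-ratio test and 3092 without homo replicate 1. Library size alone moved the median of all genes there to 0.41. *Fars2* and *Rars2*, which were not called, changed sign between the scalings tried.

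With a replicate block 11 members were called in *Cryaa*-R49C-homo against WT, 8 against het, 7 in the difference between lines, 2 between the WT groups and 0 in the other comparisons. Same-numbered libraries correlated best for every replicate in *Cryaa*-R49C-homo and in *Cryab*-R120G-homo against WT, and for some or none in the other comparisons. What same-numbered libraries share is not given by the labels.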
